A study of Rattus norvegicus with 2 samples.

Results

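The ATP-binding cassette (ABC) transporters of rat lung, other than *Abca3*, were described across 2 Affymetrix Rat Genome 230 2.0 arrays. The genes were chosen by name alone: every non-control probe set whose platform annotation gave exactly 1 gene symbol, beginning with Abc, a subfamily letter from a to g and a number, was taken, and *Abca3* was left out. This gave 48 of 31042 probe sets, which measured 36 of 14217 genes in 7 subfamilies. Total RNA from lung was the source material for both arrays, each handled by its own experimenter, in a series that addresses the reproducibility of expression profiles. The labels give no strain, sex, age or treatment, and leave unsaid if the lung or the RNA was shared. The arrays are called those of experimenter 1 and experimenter 2, after the numbers in their titles. With 1 array each there was no replicate error, so no p-value is given and no gene is called changed.

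ABC proteins are membrane pumps, channels and channel regulators built around a domain that binds and hydrolyses ATP, and a few members have no membrane part and act in translation. Different members export cholesterol and phospholipids, drugs and their conjugates, bile acids or peptides, and others sit in peroxisomes, mitochondria or lysosomes. In lung the best known member is *Abca3*, which loads phospholipid into the lamellar bodies of alveolar type 2 cells, while *Abca1* and *Abcg1* are known for removing cholesterol from macrophages and other lung cells.

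Levels are log2 RMA values, on which a step of 1 is a doubling of probe signal. Both arrays covered nearly the same range, with medians of 6.32 for experimenter 1 and 6.28 for experimenter 2. A gene with several probe sets was represented by the brightest by mean over both arrays. A percentile is the share of the 31042 probe sets of the same array at or below a value. Probe sets differ in how strongly they bind, so a rank by level is a rank of brightness on the array and not of transcript number. RMA makes no detection call, so a low value has no stated limit to noise. Of 14 markers of lung cell types, 13 were measured, at percentiles from 72.9 upward on both arrays, with surfactant protein *Sftpc* at 14.39 and 14.36. Of 17 markers of liver, intestine, kidney, pancreas, retina and heart, 15 were measured and none passed percentile 49.3. The red cell gene *Hbb* stood at 13.73 and 13.90, among the brightest values of both arrays, and the part of blood in any member's level was not tested. In such whole-tissue RNA, fewer cells of a type and less RNA per cell cannot be told apart.

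The members spread over most of the range of the arrays. The highest was *Abcg1* at 10.995 for experimenter 1 and 10.82 for experimenter 2, and the lowest was *Abcb11* at 2.72 and 2.94. Over the 36 genes the median level was 7.25, at percentile 62.2 of all probe sets, and 22 genes lay at or above the probe set median. That is 61.1% of the members, against 67.2% of all 14217 genes represented in the same way. At or above the upper quartile of levels stood 12 members (33.3%, against 39.3% of all genes), and below the lower quartile 7 (19.4%, against 15.1%). By subfamily the median percentile was 79.1 for the 7 genes of subfamily A, 46.6 for the 7 of B, 62.9 for the 9 of C, 57.3 for the 3 of D, 80.4 for the 3 of F and 33.8 for the 6 of G. Subfamily E has 1 gene.

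**Figure D1:**
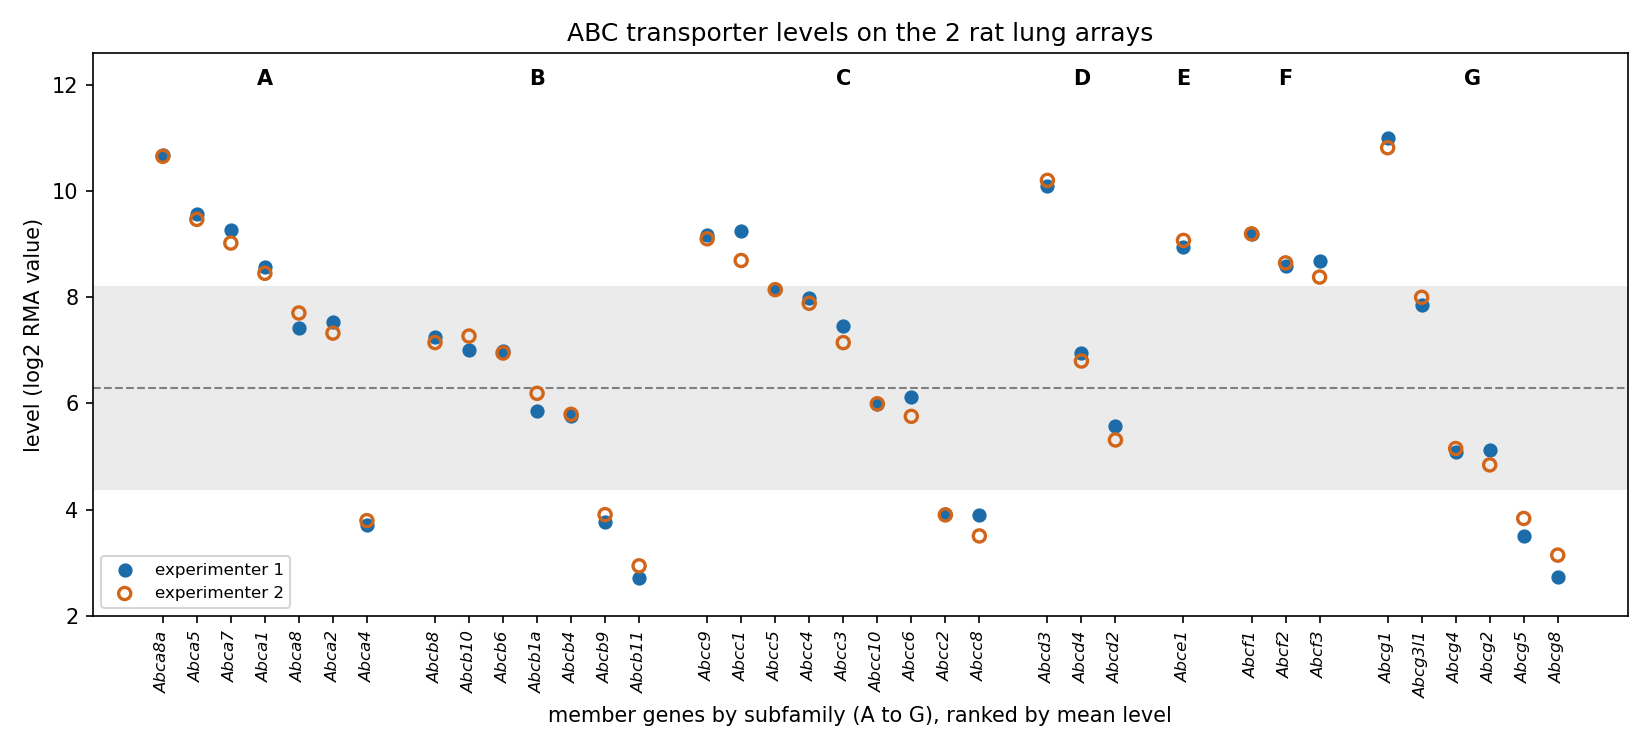
Level of each of the 36 member genes by its brightest probe set, as the log2 RMA value on the vertical axis, with filled points for experimenter 1 and open points for experimenter 2. Genes are grouped by subfamily and ranked by mean level, the dashed line is the median of all probe sets and the grey band runs between their quartiles; *Abcg1* is highest at 10.995 and 10.82, and 7 genes lie below the band.

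Subfamily A, large transporters that mostly move lipids, was led by *Abca8a* at 10.67 and 10.65, which is percentile 96.3 on each array. *Abca8a* had 1 probe set, and whether its probes also bind RNA of *Abca8* or other relatives was not tested. Next stood *Abca5*, a transporter of lysosomes and late endosomes, at 9.58 and 9.47. *Abca7*, a relative of *Abca1* that moves phospholipids and takes part in phagocytosis, measured 9.28 and 9.02. These 3 genes kept their order on both arrays, above the upper quartile. *Abca1*, which hands cholesterol and phospholipid to lipid-poor apolipoprotein A-I, measured 8.56 and 8.45. *Abca8* stood at 7.43 and 7.70, and *Abca2*, known from lysosomes of myelin-forming cells, at 7.53 and 7.32, so the order of these neighbours turned between the arrays. The lowest was *Abca4*, the retinoid lipid transporter of photoreceptors, at 3.71 and 3.79, below the lower quartile of both arrays. The retinal marker *Rpe65* was also low, at 2.79 and 2.79.

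In subfamily B the brightest genes were those of mitochondria. *Abcb8*, an inner membrane transporter, measured 7.25 and 7.15. *Abcb10*, an inner membrane transporter that red cell precursors need for heme synthesis, measured 7.003 and 7.27, so that it was second for experimenter 1 and first for experimenter 2. *Abcb6*, a porphyrin transporter, followed at 6.99 and 6.95. All 3 lay between percentiles 58.5 and 62.7. *Abcb1a*, a P-glycoprotein that pumps drugs out of cells, stood at 5.86 and 6.19, and *Abcb4*, which moves phosphatidylcholine into bile, at 5.76 and 5.80. *Abcb9*, a peptide transporter of lysosomes, was low at 3.76 and 3.91. *Abcb11*, the bile salt export pump of hepatocytes, closed the subfamily at 2.72 and 2.94, percentiles 1.33 and 4.07. *Abcb1a* has a close copy, *Abcb1b*, and whether its probes also bind RNA of the copy was not tested.

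Subfamily C holds the multidrug resistance proteins, which export conjugated compounds, and the sulfonylurea receptors. *Abcc9*, the SUR2 subunit of ATP-sensitive potassium channels in muscle and vessels, measured 9.18 and 9.10. *Abcc1*, the exporter of glutathione conjugates and leukotriene C4, measured 9.25 and 8.69 and so ranked first for experimenter 1 and second for experimenter 2. *Abcc5*, an exporter of cyclic nucleotides and other organic anions, stood at 8.15 and 8.14. *Abcc4*, which exports cyclic nucleotides and prostanoids, stood at 7.98 and 7.89, and *Abcc3*, a basolateral exporter of glucuronides, at 7.46 and 7.15. The levels of these 5 genes all lay above the median. *Abcc10* measured 5.99 and 5.99, and *Abcc6*, the liver transporter whose loss causes ectopic calcification, 6.13 and 5.76, another pair whose order turned. *Abcc2*, the canalicular exporter of bilirubin conjugates, was near the bottom at 3.92 and 3.90. *Abcc8*, the SUR1 receptor of pancreatic beta cells and neurons, was lowest at 3.90 and 3.51.

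Subfamily D was led by *Abcd3*, the PMP70 protein of the peroxisomal membrane, which measured 10.09 and 10.20, percentiles 93.6 and 94.4. *Abcd4*, which works in lysosomal export of vitamin B12, followed at 6.95 and 6.80. *Abcd2*, a peroxisomal carrier of very long chain acyl-CoA, measured 5.57 and 5.31. The gap between *Abcd3* and *Abcd4* was 3.27 in mean level. The soluble members, which bind ribosomes in place of moving a substrate across a membrane, were all bright by the brightest probe set of each. *Abce1*, which splits ribosomes for recycling, measured 8.95 and 9.07. *Abcf1*, a factor of translation initiation, measured 9.19 and 9.19, *Abcf2* 8.58 and 8.65, and *Abcf3* 8.68 and 8.38. These 4 genes lay between percentiles 77.6 and 86.9, and *Abcf2* and *Abcf3* changed places between the arrays. A second, dimmer probe set of *Abcf3* measured 6.88 and 6.74.

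In subfamily G, *Abcg1*, which passes cholesterol to high-density lipoprotein, stood 2.98 above the next gene in mean level. *Abcg3l1* measured 7.86 and 7.9998. It belongs to a group of similar genes, and whether its probes bind RNA of the others was not tested. *Abcg4*, a sterol exporter of neurons, measured 5.08 and 5.15, and *Abcg2*, the breast cancer resistance protein, 5.12 and 4.84, so these neighbours traded places. *Abcg5* and *Abcg8*, which pair as the sterol exporter of liver and intestine, measured 3.50 and 3.84, and 2.74 and 3.14. Both lay below the lower quartile of each array.

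Ranks within subfamilies held in most places. Of 36 genes, 24 had the same rank on both arrays, among them *Abce1*, whose rank was fixed as it is alone in its subfamily, and 12 did not. Those 12 formed 6 of the 29 pairs of neighbours, with gaps in mean level between 0.047 and 0.17, and the smallest gap of a pair that kept its order was also 0.17.

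Grouped by role, the genes for sterol and phospholipid efflux (*Abca1*, *Abca7*, *Abcg1*, *Abcg4*) had 3 of 4 members at or above the probe set median. *Abcb4*, *Abcg5* and *Abcg8* also move phospholipid or sterol, but were counted below with the bile canaliculus, and each lay under that median. No role group held *Abca4*, *Abca8*, *Abca8a*, *Abcc6* or *Abcg3l1*. The genes best known from the bile canaliculus and intestine (*Abcb4*, *Abcb11*, *Abcc2*, *Abcg5*, *Abcg8*) had 0 of 5, at percentiles from 1.33 to 43.9. The liver markers *Alb* (5.41 and 5.04) and *Tat* (3.54 and 3.20) were also below the median on both arrays. Of 7 genes for drug and conjugate efflux, 4 were at or above the median: *Abcc1*, *Abcc3*, *Abcc4* and *Abcc5*. The other members were *Abcb1a*, *Abcc10* and *Abcg2*. The 3 mitochondrial genes and the 4 soluble ones were all at or above the probe set median, as were 67.2% of all genes. By mean level the 3 mitochondrial genes lay under the median of all genes, 7.58.

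The sequences before the gene starts were set beside these levels, because a feature outside the naming rule, the number of CG pairs, varied widely among the members. Mammalian promoters fall into those rich in CG pairs, common in genes used by most cells, and those poor in them, common in genes used by few. RefSeq promoters of rat assembly GRCr8 were matched by gene identifier for 29 of the 36 genes, and the 250 bases before the start were counted. The 7 without a promoter were *Abcg1*, *Abca8a*, *Abcf1*, *Abcc5*, *Abcc3*, *Abcc8* and *Abcb11*. *Abcg1* and *Abca8a* were the brightest members and *Abcb11* the dimmest, so the counts below leave out both ends of the members' range. Below are the pair of member promoters with most CG pairs, that of *Abcc2* as a low counterpart, and the sequence between *Abcg5* and *Abcg8*, written 5′ to 3′ with CG pairs in capitals. *Abca5* is at chr10:95808425-95808674 on the minus strand, *Abcd3* at chr2:212590380-212590629 on the minus strand, *Abcc2* at chr1:252613625-252613874 on the plus strand, and the stretch between *Abcg8* and *Abcg5* at chr6:15717731-15717935, given on the plus strand, on which *Abcg5* lies.
Abca5: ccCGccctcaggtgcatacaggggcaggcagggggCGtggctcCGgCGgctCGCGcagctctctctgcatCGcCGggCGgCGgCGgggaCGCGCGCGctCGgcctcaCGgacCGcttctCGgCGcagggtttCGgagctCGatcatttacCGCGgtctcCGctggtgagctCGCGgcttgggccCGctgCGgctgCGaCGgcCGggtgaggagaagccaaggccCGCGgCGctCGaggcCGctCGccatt
Abcd3: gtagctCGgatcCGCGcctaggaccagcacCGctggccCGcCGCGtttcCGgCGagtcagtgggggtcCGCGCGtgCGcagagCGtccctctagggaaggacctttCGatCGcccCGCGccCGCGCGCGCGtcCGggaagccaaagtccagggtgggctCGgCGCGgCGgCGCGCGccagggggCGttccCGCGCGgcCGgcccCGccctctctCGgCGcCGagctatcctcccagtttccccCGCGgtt
Abcc2: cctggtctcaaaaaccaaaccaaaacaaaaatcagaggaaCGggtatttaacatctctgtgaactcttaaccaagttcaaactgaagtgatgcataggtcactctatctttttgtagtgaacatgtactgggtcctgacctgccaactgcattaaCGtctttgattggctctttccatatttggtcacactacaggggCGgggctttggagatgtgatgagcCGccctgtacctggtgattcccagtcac
Abcg5 and Abcg8: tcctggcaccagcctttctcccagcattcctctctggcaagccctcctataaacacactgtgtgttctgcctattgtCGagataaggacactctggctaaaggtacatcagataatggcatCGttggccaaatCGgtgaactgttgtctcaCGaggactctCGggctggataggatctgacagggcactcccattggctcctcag

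The promoter of *Abcd3* held 42 CG pairs and that of *Abca5* 38, and these genes measured 10.09 and 10.20, and 9.58 and 9.47. Counts of 38 or more were found in 1.75% of the 27457 promoters of the reference table, 1 for each gene, whose median was 6. Such counts are less rare among measured genes, of which 561 of 11733 had 35 to 60 CG pairs. The promoter of *Abcc2* held 4. *Abcg5* and *Abcg8* start close together on opposite strands, so that they share the printed stretch of 205 bases, which has 5 CG pairs. Members ranged from 3 to 42 CG pairs with a median of 18, against a median of 15 for the 11733 measured genes that had a promoter.

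Of the 9 members with fewer than 10 CG pairs, 2 lay at or above the probe set median in level, *Abca8* and *Abcg3l1*. Of the 20 with 10 or more, 15 did. The same shares over all measured genes were 47.3% below 10 CG pairs and 78.3% from 10 up. The other 5 of the 20 were *Abcb4* (29 CG pairs), *Abcg2* (22), *Abcb9* (16), *Abcc10* (13) and *Abcg4* (11). Across the 29 members, the correlation of CG pairs with mean level was 0.63 by Pearson's r and 0.64 by Spearman's rho, and across the 11733 measured genes with r = 0.28 and rho = 0.30. These are descriptions across genes that share the same 2 arrays, not tests, and base composition can also act on how probes bind. The split at 10 CG pairs was chosen with the values known. *Abcg5* and *Abcg8*, dim genes with 5 CG pairs each, share the printed stretch. It therefore enters these counts and correlations as 2 members.

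Short motifs were counted in the same windows on both strands. The GC box GGGCGG was found in 21 of 29 member promoters (72.4%), against 54.2% of the promoters of measured genes and 32.4% of all promoters. It contains a CG pair, so it overlaps the count above. TATAAA was found in 4 (13.8%), those of *Abca1*, *Abcd4*, *Abcg5* and *Abcg8*, against 8.06% of the promoters of measured genes and 13.1% of all. *Abcg5* and *Abcg8* share the same match, in the stretch printed above. The E-box CACGTG was found in 2 (6.90%), those of *Abca1* and *Abcb6*, against 7.82% of the promoters of measured genes and 5.79% of all. A match says only that these letters occur in the window.

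**Figure D2:**
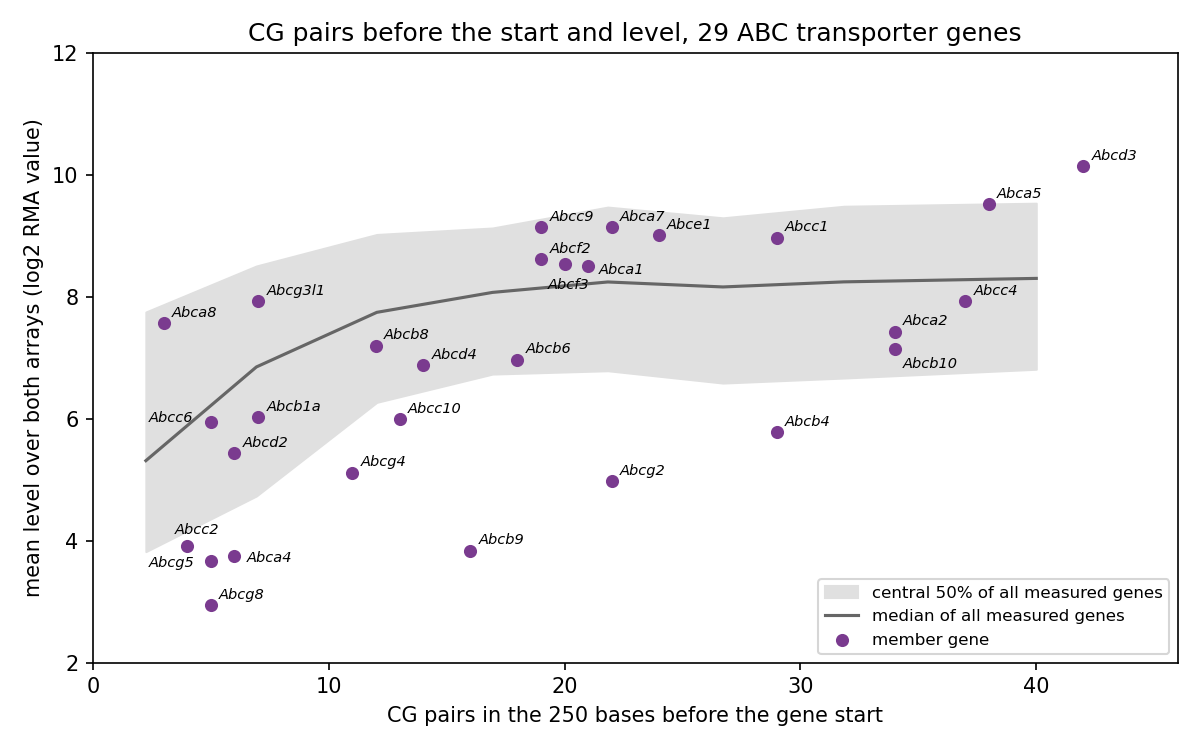
Mean level over both arrays (log2 RMA value) against the number of CG pairs in the 250 bases before the gene start for the 29 member genes with a RefSeq promoter. The line and the grey band are the median and the central 50% of all 11733 measured genes in groups of like CG count; *Abcd3* lies at the upper right with 42 CG pairs, and *Abcg8*, *Abcg5*, *Abcc2* and *Abca4* at the lower left with 6 or fewer.

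Gene order in GRCr8 gave further neighbours among the members. *Abca8*, *Abca8a*, *Abca9*, *Abca6* and *Abca5* follow each other without another protein-coding gene between them, and the 3 measured here were the leading pair of subfamily A (*Abca8a* and *Abca5*) and *Abca8*, which ranked behind *Abca7* and *Abca1*. *Abcb4*, *Abcb1b* and *Abcb1a* also stand in a row, and the 2 measured, *Abcb4* and *Abcb1a*, were 0.25 apart in mean level.

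The 2 arrays gave close values for the members. All differences are experimenter 2 minus experimenter 1 on the log2 scale. The median difference over the 36 genes was -0.017, against -0.049 over all 14217 genes, and over the 48 probe sets it was -0.012, against -0.052 over all 31042. The median size of a difference, without its sign, was 0.14 for the member genes and 0.16 for all genes. Of the members, 20 were lower and 16 higher for experimenter 2. Lower values were 55.6% of the members and 58.7% of all genes, so the members leaned the way all genes did. This balance rested on values close to 0: removing a loess trend, or quantile normalization of the 2 columns, gave 16 lower and 20 higher, as *Abca8a*, *Abcb6*, *Abcc2* and *Abcc5* crossed 0. All genes then had 50.3% higher after loess and 48.1% after quantile normalization.

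No member gene differed by 1.5-fold or more (0.58 on the log2 scale), and 3.24% of all genes did. Among probe sets, 1 of 48 did, or 2.08%, against 4.35% of all probe sets. At 2-fold the count was 0 of 36 genes, against 0.274% of all. For a difference of at least 25% (0.32 on the log2 scale) it was 6 of 36 genes, or 16.7%, against 18.8% of all genes, and 9 of 48 probe sets, or 18.8%, against 21.8%. Each of these shares was under that of all features, by margins that a few genes would close.

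Among genes, *Abcc1* was the farthest apart: 9.25 against 8.69, a difference of -0.55 or 1.47-fold, and 3.99% of all genes differed by as much or more. Its level stayed above the upper quartile on both arrays. *Abcg8* differed by 0.41, *Abcc8* by -0.39, *Abcc6* by -0.37, *Abcg5* by 0.34 and *Abcb1a* by 0.33, which completes the 6 past 25%. Of the 36 genes, 3 were thus higher (8.33%, against 7.96% of all genes) and 3 lower (8.33%, against 10.8%). Of these, *Abcg8*, *Abcc8* and *Abcg5* were below the lower quartile, where no limit to noise was given. *Abcg5* and *Abcg8*, partners in 1 transporter, were both higher for experimenter 2. The 5 canalicular and intestinal genes had 4 higher, with a median of 0.22, while *Abcc2* differed by -0.017. That median is the value of *Abcb11*, the dimmest member. Of these genes only *Abcb4*, which differed by 0.033, lay above the lower quartile. Of all genes, 41.1% were higher. The liver markers *Alb*, *Apoa2* and *Tat* differed by -0.36, -0.43 and -0.34, and *Ttr* by 0.16, while the intestinal markers *Vil1*, *Fabp2* and *Cdh17* differed by 0.047, 0.18 and 0.011, and the part of these tissues in the members' values was not tested.

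Among the other roles, sterol and phospholipid efflux had 3 of 4 lower: *Abca7* by -0.25, *Abcg1* by -0.18 and *Abca1* by -0.11, with *Abcg4* at 0.074. *Abcb4*, *Abcg5* and *Abcg8*, which also move phospholipid or sterol but were counted with the bile canaliculus, were each higher. Drug and conjugate efflux had 5 of 7 lower, from -0.55 for *Abcc1* to 0.33 for *Abcb1a*. The soluble genes had 3 of 4 higher by small amounts, from 0.0078 for *Abcf1* to 0.12 for *Abce1*, while *Abcf3* differed by -0.30. Lower values were found for 2 of 2 potassium channel genes, 2 of 3 mitochondrial, 1 of 2 peroxisomal and 3 of 4 lysosomal genes. By subfamily, C had 8 of 9 genes lower, with only *Abcc10* higher by 0.0094, and B had 5 of 7 higher. Within C, *Abcc2* and *Abcc5* turned to higher values after centring, loess and quantile normalization, which leaves 6 lower. Within B, *Abcb6* turned to higher values after loess (0.019) and quantile normalization (0.0034). Of all genes 58.7% were lower and 41.1% higher, and each of these roles and subfamilies holds few genes.

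**Figure D3:**
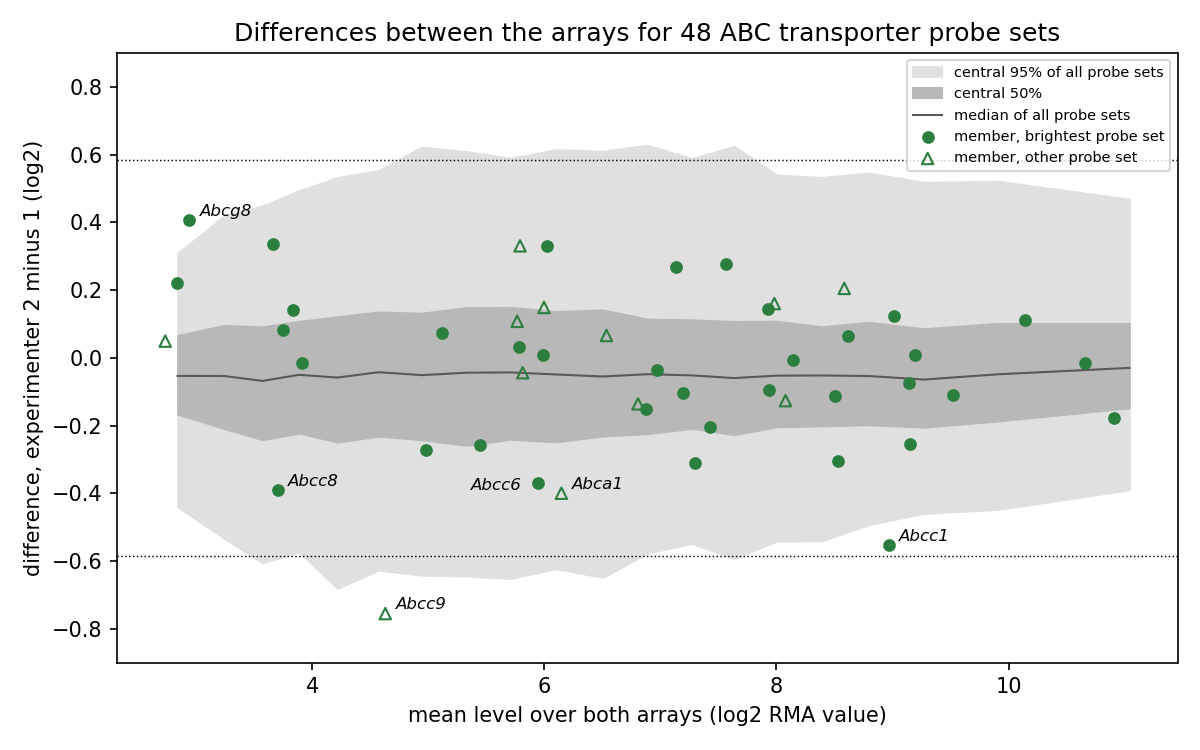
Difference between the arrays (experimenter 2 minus 1, log2) against mean level for the 48 member probe sets; filled points are the brightest probe set of a gene and open triangles the others. The bands hold the central 95% and 50% of all 31042 probe sets in 20 groups by level and the dotted lines mark 1.5-fold; *Abcg8*, *Abcc1* and 1 probe set of *Abcc9* lie outside the outer band.

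Read against probe sets of like level, 3 of the 48 member probe sets (6.25%) lay outside the central 95%. They were those of *Abcg8* and *Abcc1* and the dimmest of *Abcc9*, the 1 probe set past 1.5-fold.

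Several probe sets were present for 8 genes, 20 in all, and these gave a second reading of the same gene. The 3 probe sets of *Abcc9* measured 9.18 and 9.10, 8.48 and 8.69, and 5.01 and 4.25. The dimmest, whose identifier marks probes shared by several transcripts of the gene, differed by -0.76 or 1.69-fold, the second by 0.20 and the brightest by -0.076. Only the dim probe set was far apart, and the second leaned the other way. The 4 probe sets of *Abca1* measured 8.56 and 8.45, 8.14 and 8.01, 6.35 and 5.95, and 5.63 and 5.96. The brighter pair differed by -0.11 and -0.13, and the dimmer pair by -0.40 and 0.33. For *Abca1* the bright probe sets thus repeated each other, and the dim ones stood 0.73 apart.

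*Abcg1* measured 10.995 and 10.82, 7.90 and 8.06, and 6.50 and 6.57, with differences of -0.18, 0.16 and 0.066. Its lower value for experimenter 2 therefore held for the brightest probe set alone. *Abcb1a* measured 5.86 and 6.19 by the first probe set and 5.92 and 6.07 by the second, with differences of 0.33 and 0.15. *Abcb10* was higher by both as well, by 0.27 and 0.11, and *Abca8* by 0.28 and 0.049. *Abcf3* was lower by both, by -0.30 and -0.14, and *Abcc5* was nearly level by both, at -0.0067 and -0.044. In all, 5 of the 8 genes had 1 direction in every probe set and 3 did not (*Abca1*, *Abcc9*, *Abcg1*). The other 28 genes, *Abcc1* and *Abcg8* among them, had no second reading.

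Probe sets of 1 gene differed far more in level than the arrays did. The gap between a gene's brightest and dimmest probe set had a median of 2.53 and exceeded 1 in 7 of 8 genes. It was largest for *Abca8*, whose probe sets had means of 7.57 and 2.73, followed by *Abcc9* and *Abcg1* with gaps of 4.51 and 4.37. Only *Abcb1a* had probe sets of nearly equal level, 0.028 apart. The median gap between the differences of a gene's probe sets was 0.21. The place of a gene in its subfamily could thus depend on the probe set. By the mean over probe sets, or by the second brightest, *Abcc1* took the first place of subfamily C from *Abcc9*. *Abcg1*, the other leader with several probe sets, kept its place. By its second brightest probe set the margin was small, with a mean level of 7.98 against 7.93 for *Abcg3l1*. The leaders *Abca8a*, *Abcb8*, *Abcd3*, *Abce1* and *Abcf1* had 1 probe set each, so these choices could not displace them.

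**Figure D4:**
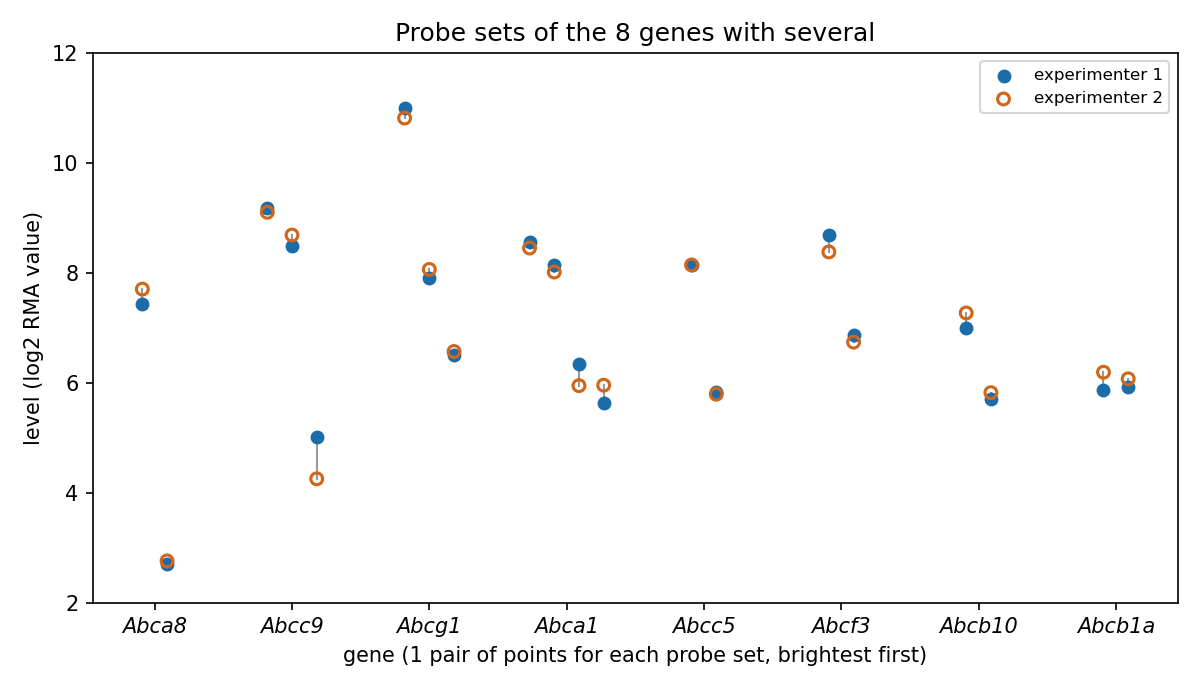
Level (log2 RMA value) of each probe set of the 8 member genes that had several, brightest first within a gene, with filled points for experimenter 1 and open points for experimenter 2. Gaps between probe sets of a gene reach 4.83 for *Abca8*, whereas the largest difference between the arrays is -0.76, for the dimmest probe set of *Abcc9*.

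Of the ABC genes outside the naming rule, *Abca3* measured 11.30 and 11.02 by its brighter probe set, above every member, and 9.96 and 9.90 by the other. *Cftr*, the chloride channel of the C subfamily, measured 6.07 and 5.95. *Tap1* and *Tap2*, which pump peptides to MHC class I, measured 8.80 and 8.76, and 8.98 and 8.80. By the brightest probe set of each, all 4 were lower for experimenter 2, by -0.28 for *Abca3* at most, where 58.7% of all genes were lower. For *Tap1* the difference was -0.033, smaller in size than the shift of 0.034 that median centring adds. A dimmer probe set of *Tap1* differed by -0.41.

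Partners and regulators of the members were given by 9 further lists with 99 measured genes, by the brightest probe set of each. Of these, 65 were lower and 34 higher, where 58.7% of all genes were lower, and 2 (2.02%) were at least 1.5-fold apart, against 3.24% of all genes. These were *Nr1h2*, the LXR beta receptor that drives *Abca1* and *Abcg1*, at 9.34 and 8.63, a difference of -0.71, and *Ahr*, the receptor for dioxins and related compounds, at 5.54 and 4.67, a difference of -0.87. A second, dimmer probe set of *Ahr* differed by 0.30, the other way, and that of *Nr1h2* by -0.15. *Nr1h3*, the LXR alpha receptor, differed by 0.055. The sterol efflux list had 9 of 13 lower, with a median of -0.084, and *Npc2*, a lysosomal cholesterol carrier, was its brightest gene at 13.02 and 12.93. *Apoa1*, the acceptor of cholesterol from *Abca1*, was low at 3.70 and 3.43, while *Apoe* stood at 11.66 and 11.59. The xenobiotic and bile acid regulators had 6 of 9 lower, with a median of -0.17. Their brightest gene was *Nfe2l2*, the NRF2 factor of the oxidative response, at 10.70 and 10.90, and *Nr1i2*, the pregnane X receptor, measured 4.36 and 4.38.

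Uptake carriers for organic ions had 11 of 16 lower (median -0.051) and were led by *Slco2a1*, the prostaglandin carrier, at 12.55 and 12.43. The pore subunits that pair with *Abcc8* and *Abcc9* measured 6.29 and 6.31 for *Kcnj8* and 4.88 and 4.86 for *Kcnj11*, with differences of 0.018 and -0.017. Peroxisomal genes had 12 of 16 lower (median -0.12), led by *Scp2*, a sterol carrier and thiolase, at 12.18 and 11.96. Peptide loading genes had 6 of 9 lower (median -0.11), led by *B2m*, the light chain of MHC class I, at 13.96 and 13.93. Heme and iron-sulfur genes had 9 of 14 lower (median -0.10), led by *Iscu*, a scaffold of cluster assembly, at 10.55 and 10.38. Translation genes had 5 of 10 lower (median -0.052), led by *Eif2s2*, a subunit of eIF2, at 11.05 and 10.85. Surfactant and lamellar body genes had 6 of 10 lower (median -0.034), led by *Sftpc*. These medians lay between -0.17 and 0.00054, the latter for the pore subunits, beside -0.049 for all genes.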

How the data were processed

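Total RNA from rat lung was the source material and biotin the label, with 1 array hybridised for each of 2 experimenters. The authors deposited RMA values (background-corrected, normalized and summarised per probe set), per the submitters' processing notes. The RMA version, and which arrays were normalized as 1 set, were not given in the sources used here. Base 2 was inferred from the span of the deposited values, since no source states it, and they are called log2 values here.

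Of 31099 probe sets, 57 were controls. Of the other 31042, 20826 had 1 symbol, 436 several and 9780 none, and symbols were updated through Entrez identifiers to RefSeq GRCr8, which left all 48 members' symbols as they were. Probe sets with several symbols were not named, among them 2 with ABC genes. Of 53 RefSeq genes of this naming pattern besides *Abca3*, 17 were not analysed here. No sample was left out. All 36 genes were named; those past 1.5-fold by any probe set, those whose probe sets differed in direction with 1 past 25%, and the highest and lowest of each subfamily were described in more detail. The members and lists were chosen with earlier results of these data known. Other settings tried were a filter at the median level, other folds, other probe set choices, quantile normalization, median centring, and subtraction of a loess trend over fraction 0.3 of the probe sets. Software was Python 3.11.15, matplotlib 3.10.9, statsmodels 0.14.6, scipy 1.17.1, pandas 2.3.3 and numpy 2.4.6, and the scripts were tested on simulated data. The number of arrays limits the precision.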

Additional observations from a re-analysis of the deposited data

How the results depend on the processing

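No paired analysis was possible because a single array stands for each experimenter, which also prevents leaving an array out. The median difference of the members kept its sign under the filter at the median level and under each probe set choice, and turned under every scaling: over genes it was 0.017 after median centring, 0.031 after loess and 0.017 after quantile normalization, and over probe sets 0.022, 0.046 and 0.033. The single probe set 1.5-fold lower remained under the 3 scalings and was lost (0) at 2-fold and under the filter at the median level, since it lies below that level. At a 25% difference there were 5 probe sets lower and 4 higher, and 3 genes lower and 3 higher; no gene passed 1.5-fold under any scaling, filter or probe set choice. The median percentile of the members was 58.7 with the mean over probe sets, 56.9 with the second brightest, and 44.4 when placed among genes, since genes by their brightest probe set lie higher than probe sets do. Single genes changed sign under a scaling in at most 4 of 36 cases. With the second brightest probe set 2 of 8 did, *Abcc9* (0.20) and *Abcg1* (0.16), and the cause was not tested. Low signal limits the dim members, since no detection calls were used.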

Other observations

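The dimmer probe sets of the regulators *Ahr* and *Nr1h2*, which were the 2 related genes at least 1.5-fold apart, had low levels. That of *Ahr* measured 3.84 for experimenter 1 and 4.14 for experimenter 2, and that of *Nr1h2* measured 3.79 and 3.64. The dimmer probe set of *Tap1* measured 4.12 and 3.70. All of these values lay below the lower quartile of their array (4.42 and 4.37).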
